A study of Mus musculus with 6 samples.

Results

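Bcl6b and 9 other genes that mark or run the endothelium, the cell layer that lines blood vessels, were followed in mouse tongue. The genes are Bcl6b, Pecam1, Cdh5, Kdr, Flt1, Tek, Tie1, Sox17, Sox18 and Vwf, and every array probe whose accession belonged to one of them was taken, which gave 10 genes of 21368 named on the array, read by 12 probes of 55681. The genes were chosen by the signals of these same arrays, on which Bcl6b was lower with doxycycline, so its difference, with its error and any pass of a threshold, is a description and no test, and the question is whether the other genes of the same cells moved with it. RNA came from tongue tissue of iDek mice on a C57Bl6 background, in which Dek, a chromatin protein, can be induced by the antibiotic doxycycline (DOX). The groups were DOX for 2 weeks and untreated (no DOX), with 3 arrays each; the study's design text counts them as mice, while the treatment label writes the untreated animal in the singular. All 6 arrays are labelled as carrying the inducible Dek allele, which the labels call both ubiquitous and specific to squamous cells. The driver of the allele and the age of the mice are not given in the sources used here. The series title speaks of exposure to a carcinogen, the sample labels name none, and whether these mice had any is not given. No mice without the allele were analysed here, so DOX and Dek induction cannot be told apart.

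Endothelial cells hold together through junction proteins such as VE-cadherin, the product of Cdh5, and PECAM-1. They respond to VEGF through the receptors Kdr and Flt1 and to angiopoietins through Tek and its partner Tie1. Sox17 and Sox18 encode transcription factors that help set vessel identity, and Vwf encodes a clotting protein that endothelial cells and megakaryocytes store and release. Bcl6b, also called Bazf, encodes a BTB zinc finger repressor related to Bcl6. It is active in endothelium, and in mice it is also known from memory CD8 T cells and spermatogonial stem cells.

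The endothelial signal was measured on every array: 6 of 6 defining markers (Pecam1, Cdh5, Tie1, Kdr, Emcn and Cldn5) were well above background on all 6 arrays, and so were all 12 probes of the 10 genes. Between 56.0% and 58.3% of probes on an array were well above background, and no spot was saturated. Levels below are the log2 of the processed signal minus the log2 of the array's 75th percentile of that signal, which lay between 279.7 and 302.2. Probes bind with different strength, so a level is compared between arrays and not between genes. Dek itself, read by 1 probe that need not cover the transgene, averaged 2.16 ± 0.08 with DOX and 2.01 ± 0.10 without DOX (SD, n = 3 each), a log2 difference of 0.15 ± 0.11 (SE, limma adjusted p = 0.483). Precision is limited by having only 3 arrays a group, and p-values measure the spread between these 6 samples.

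Bcl6b was the outlying gene of the 10. Its level, from the single probe A_51_P424959 for NM_007528, was -2.53, -2.99 and -3.08 in DOX replicates 1 to 3, against -0.86, -0.90 and -1.37 in no DOX replicates 1 to 3. In processed signal these arrays read 49.6, 36.4 and 35.2 with DOX, against 167, 149 and 109 without DOX. Every DOX array lay below every no DOX array. The means were -2.87 ± 0.29 with DOX and -1.04 ± 0.28 without DOX (SD, n = 3 each), so Bcl6b was 3.54-fold lower with DOX (log2 -1.82 ± 0.20, SE). This was the 37th largest fall among 15207 named genes tested. Normexp background correction, which adds an offset of 50 to a signal of this size, gave a log2 difference of -1.01. In tissue RNA, fewer cells of a type and less RNA per cell cannot be told apart.

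**Figure D1:**
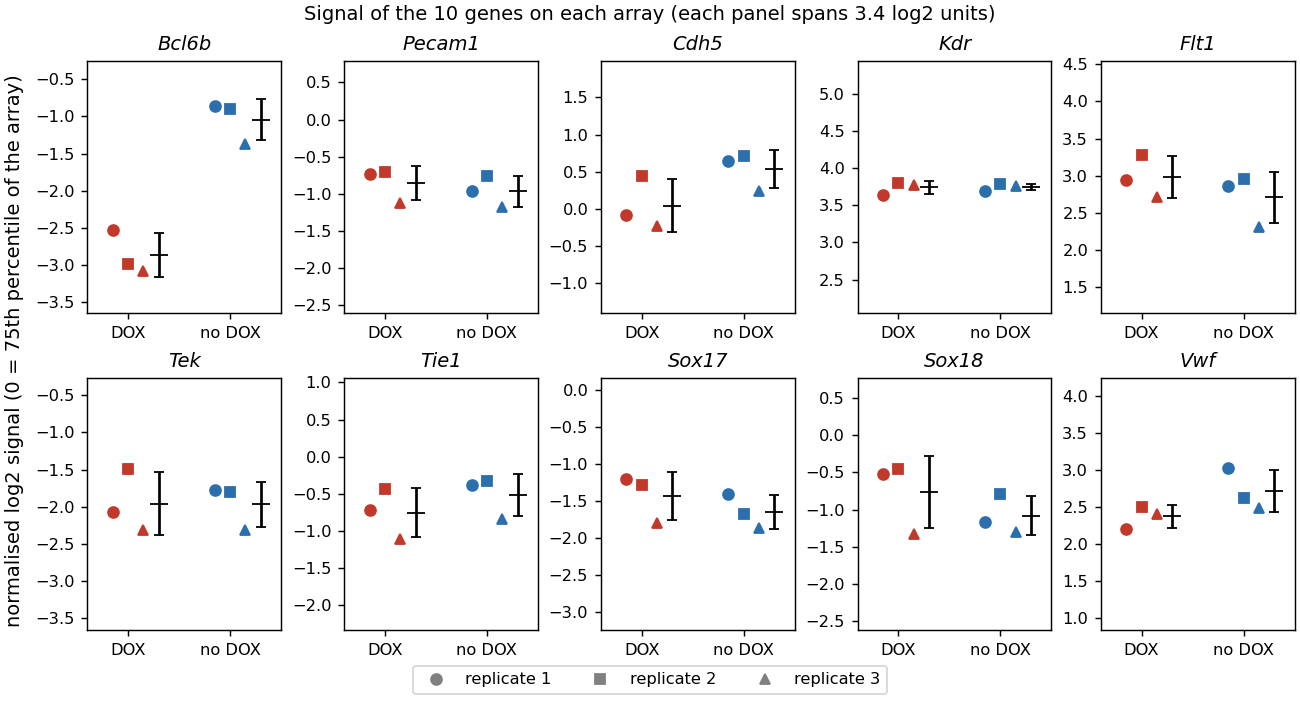
Normalised log2 signal of the 10 genes on each array, with DOX left and no DOX right in each panel; symbols stand for replicates 1 to 3, and the black bars give the mean and SD of each group (n = 3). Kdr and Sox17 are shown by their brighter probe. Bcl6b lies between -3.08 and -2.53 with DOX and between -1.37 and -0.86 without DOX, while the groups of the other 9 genes overlap.

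The vessel receptors did not share that difference. Promoter sequences from RefSeq (build GRCm38.p6, 250 bases before to 50 after the gene start) were matched for 4 of the 10 genes. These were the receptors Kdr, Flt1, Tek and Tie1, and all 4 are shown. Any link between promoter sequence and array levels was not tested. Capitals mark the ETS-type letters AGGAAG or CGGAAG and the SOX-type letters ACAAAG or ACAATG, searched on both strands. ETS and SOX proteins are transcription factor families active in endothelium.
Kdr (chr5:75978406-75978705, minus strand): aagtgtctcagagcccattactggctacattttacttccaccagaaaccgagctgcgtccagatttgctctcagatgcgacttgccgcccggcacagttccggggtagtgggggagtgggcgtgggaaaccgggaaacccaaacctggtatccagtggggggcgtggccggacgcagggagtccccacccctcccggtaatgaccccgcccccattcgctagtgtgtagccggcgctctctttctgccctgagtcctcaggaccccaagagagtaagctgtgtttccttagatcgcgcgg
Flt1 (chr5:147725962-147726261, minus strand): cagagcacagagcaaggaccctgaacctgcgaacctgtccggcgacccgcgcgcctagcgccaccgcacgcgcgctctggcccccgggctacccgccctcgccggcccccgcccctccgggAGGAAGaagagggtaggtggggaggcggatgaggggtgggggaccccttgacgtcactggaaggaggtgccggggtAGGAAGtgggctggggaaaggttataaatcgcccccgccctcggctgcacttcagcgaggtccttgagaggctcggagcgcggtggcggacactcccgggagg
Tek (chr4:94739039-94739338, plus strand): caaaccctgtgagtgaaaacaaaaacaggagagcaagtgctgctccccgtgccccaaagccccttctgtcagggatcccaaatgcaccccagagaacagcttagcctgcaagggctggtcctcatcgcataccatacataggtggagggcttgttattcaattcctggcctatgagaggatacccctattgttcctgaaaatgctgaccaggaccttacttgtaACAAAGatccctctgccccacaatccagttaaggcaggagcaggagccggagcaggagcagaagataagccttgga
Tie1 (chr4:118489800-118490099, minus strand): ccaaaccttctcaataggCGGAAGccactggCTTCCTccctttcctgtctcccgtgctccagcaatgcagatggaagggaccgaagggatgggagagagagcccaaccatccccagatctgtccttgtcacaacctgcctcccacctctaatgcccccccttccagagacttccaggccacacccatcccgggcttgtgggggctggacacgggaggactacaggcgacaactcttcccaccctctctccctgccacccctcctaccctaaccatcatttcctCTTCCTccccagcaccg

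Tie1 held 3 ETS-type matches and Flt1 2, Tek held 1 SOX-type match, and Kdr held 0 of either kind. Over all 32851 promoters of the same length, 46.5% held an ETS-type match and 28.6% a SOX-type match. The 74 further vessel genes with a matched promoter were counted by gene, a match in any promoter of the gene sufficing. Of these, 38 (51.4%) held an ETS-type match, where 49.8% of all 27025 genes did. A SOX-type match was held by 18 (24.3%), where 31.7% of all genes held one. A match describes letters in this window only.

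Kdr, the main signalling receptor for VEGF, was read by 2 probes that gave different array patterns. Its brighter probe, A_55_P2094469, stood at 3.64, 3.80 and 3.78 with DOX, against 3.70, 3.78 and 3.76 without DOX. The log2 difference was -0.0059 ± 0.10 (SE), with a 95% interval from -0.25 to 0.24. The dimmer probe, A_51_P316553, stood at 0.69, 1.16 and 0.33 with DOX, against 1.38, 1.21 and 0.79 without DOX. Its groups overlapped, its difference was -0.40 ± 0.25, with a limma adjusted p of 0.434, so the test was not passed.

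Flt1, the other VEGF receptor, which can also act as a trap for VEGF, stood at 2.95, 3.27 and 2.72 with DOX and 2.86, 2.96 and 2.31 without DOX. Its difference of 0.27 ± 0.22 did not pass (limma adjusted p = 0.561), and the 95% interval of its fold, DOX over no DOX, ran from 0.838 to 1.74. Tek, the angiopoietin receptor, stood at -2.07, -1.49 and -2.32 with DOX and -1.78, -1.80 and -2.31 without DOX. The groups covered almost the same span, and the difference was 0.0059 ± 0.25 (limma adjusted p = 0.993). Tie1, its partner, stood at -0.72, -0.44 and -1.10 with DOX and -0.39, -0.33 and -0.84 without DOX. That difference of -0.24 ± 0.22 did not pass (limma adjusted p = 0.605), and its 95% interval ran from -0.75 to 0.28.

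Junction genes and the clotting gene were also tested. Cdh5 stood at -0.079, 0.45 and -0.23 with DOX, against 0.65, 0.72 and 0.25 without DOX. DOX replicate 2 lay above no DOX replicate 3, so the groups overlapped, and the difference of -0.49 ± 0.22 was the most negative of the 9 genes without passing (limma adjusted p = 0.285). Pecam1 stood at -0.74, -0.71 and -1.12 with DOX, against -0.96, -0.76 and -1.18 without DOX. Its difference was 0.11 ± 0.17 (limma adjusted p = 0.780). Vwf stood at 2.20, 2.50 and 2.41 with DOX and 3.03, 2.62 and 2.48 without DOX, a difference of -0.34 ± 0.17 that did not pass (limma adjusted p = 0.341).

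The SoxF factors lay on the other side of 0. Sox18, which acts in vessel and lymphatic development, stood at -0.52, -0.45 and -1.32 with DOX, against -1.16, -0.79 and -1.30 without DOX. Its difference of 0.32 ± 0.26 was the most positive of the 9 and did not pass (limma adjusted p = 0.573). Sox17, an arterial factor, had 2 probes. The brighter, A_55_P2157023, stood at -1.21, -1.28 and -1.80 with DOX and -1.41, -1.68 and -1.86 without DOX, a difference of 0.22 ± 0.20 (limma adjusted p = 0.607). The dimmer, A_55_P2094706, gave 0.080 ± 0.21.

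Among the 9 genes other than Bcl6b, 0 passed the test (limma, Benjamini-Hochberg over all 30921 probes tested, threshold 0.05), where 0.513% of all named genes and 0.391% of all probes did. At an unadjusted p under 0.05, 0 of the 9 passed as well, where 20.1% of named genes did. With 20 possible assignments, exact two-sided permutation tests gave p between 0.2 and 1 for their probes, where 0.1 is the smallest value this design allows. None of the 9 had groups that did not overlap, against 27.5% of all named genes. Their median log2 difference was 0.0059, with a range from -0.49 to 0.32, beside a median of -0.0020 over all named genes (interquartile range -0.19 to 0.18). Of the 10 genes, Bcl6b alone passed, where 0.158% of named genes passed with a lower mean in DOX; it was chosen for this contrast, and nothing is read from that count. Without any 1 of the 6 arrays it no longer passed, although its log2 difference stayed between -1.99 and -1.72.

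**Figure D2:**
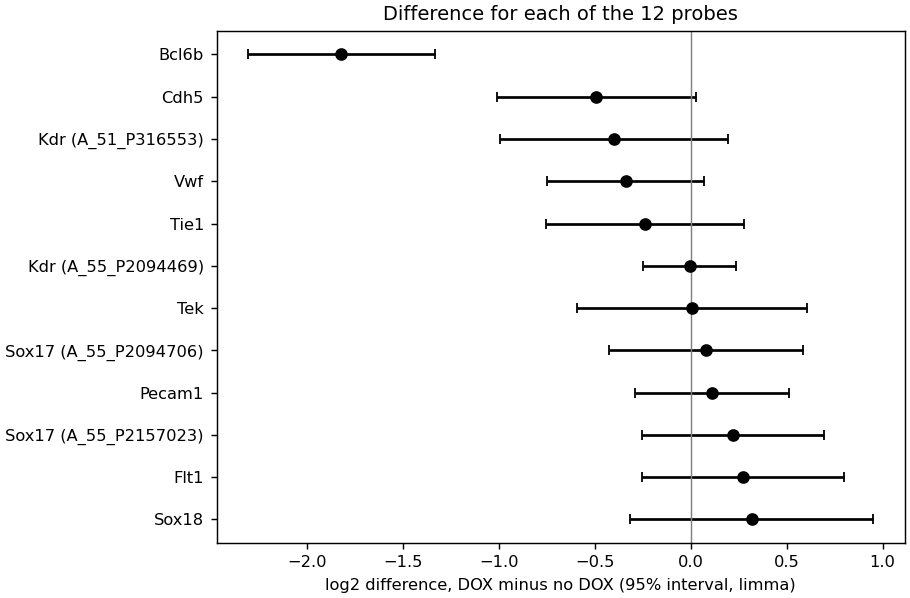
Log2 difference, DOX minus no DOX, for each of the 12 probes of the 10 genes, with the 95% interval from limma (3 arrays a group). Bcl6b, chosen for its difference, stands at -1.82 with an interval of -2.31 to -1.34 drawn as a description; the intervals of the other 11 probes include 0.

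Set array by array against the other 9 genes, Bcl6b kept its difference. The mean level of the 9 genes was 0.38, 0.63 and 0.11 in DOX replicates 1 to 3, against 0.50, 0.52 and 0.15 in no DOX replicates 1 to 3. These means overlapped between the groups and differed by -0.017 on the log2 scale. Bcl6b minus that mean was -2.91, -3.62 and -3.19 with DOX, against -1.36, -1.43 and -1.51 without DOX; only the change between arrays has a meaning here, since it joins different probes. The shift was -1.81, or 3.50-fold lower Bcl6b relative to the 9 genes. Taken against each of the other 11 probes in turn, Bcl6b was lower by 1.33 (Cdh5) to 2.14 (Sox18) on the log2 scale, and the DOX arrays lay below the no DOX arrays for all 11. As Bcl6b was chosen for being lower, these values carry no test.

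Within a group, most of the genes were lowest in the same replicate. Of the 10 genes, 8 were lowest in replicate 3 of both groups, Bcl6b among them, where 16.7% of all named genes were. The exceptions were Vwf and Kdr by its brighter probe, while the dimmer Kdr probe was lowest there too. So were 57 of the 98 further vessel genes taken up below. The low was not particular to vessel genes. Mean levels of skeletal muscle, fibroblast, and pericyte and smooth muscle markers were also lowest in replicate 3 of both groups. Those of the remaining lists of other cells were not. Replicate 3 also had the smallest share of probes well above background in each group, 56.8% without DOX and 56.0% with DOX. Relative to the no DOX mean, the 9 genes stood at -0.28 in DOX replicate 3 and -0.25 in no DOX replicate 3, and Bcl6b stood at -2.03 and -0.32 on these arrays. In DOX replicate 2 the 9 genes were highest, at 0.24, and Bcl6b was at -1.94. All arrays lay on 1 slide with 1 scan, but DOX replicates 2 and 3 lay in row 2 of it and the other 4 arrays in row 1. Within row 1, DOX replicate 1 stood at -1.49 for Bcl6b and -0.0089 for the mean of the 9 genes, relative to the no DOX mean; it is the 1 DOX array there.

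**Figure D3:**
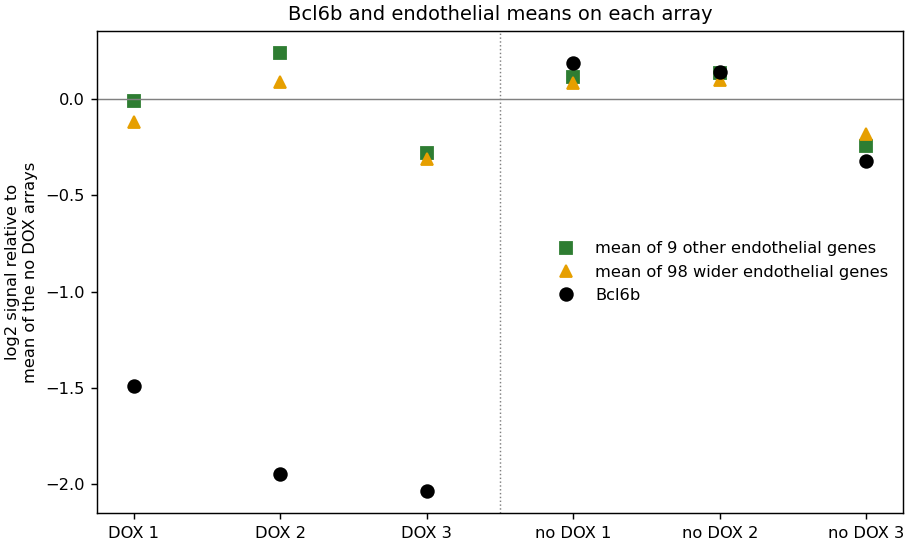
Log2 signal on each array relative to the mean of the 3 no DOX arrays for Bcl6b (circles), the mean of the 9 other genes (squares) and the mean of 98 further vessel genes (triangles). Both means stay between -0.31 and 0.24 on all 6 arrays, while Bcl6b lies between -2.03 and -1.49 on the DOX arrays.

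A wider set of vessel genes was taken from 9 lists that held 107 further genes, of which 98 were tested. The lists also hold ligand genes and genes that are not restricted to endothelium. Fabp4, for example, is on the fat cell list too. The set is therefore no measure of endothelium alone. None of the 98 passed the limma test (0 rose and 0 fell, where 0.355% and 0.158% of named genes did), and 15 had an unadjusted p under 0.05, where 20.1% of all named genes did. Their mean was higher with DOX for 38 and lower for 60 (50.4% of all named genes were lower), and the median log2 difference was -0.085, beside -0.0020 over all named genes. Groups that did not overlap were seen for 3 higher and 12 lower genes of the 98, where 14.5% and 13.0% of all named genes were so placed. Flt4 is among these 12 and among the 15 above, though it lay below the background limit on all 3 DOX arrays. It entered the test through the no DOX arrays alone, and its values are part of the mean of the 98 and of its list medians. In 86 of the 98 the log2 difference was under 0.5 in size. The interquartile range over all named genes was -0.19 to 0.18, so nothing is read from that count. None of the 98 had a difference as negative as that of Bcl6b. As Bcl6b was chosen and had the 37th largest fall among 15207 named genes, this says little about vessel genes.

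Surface and junction genes had a median of -0.11 over 27 tested genes. Egfl7, a matrix-bound vessel factor, was at -0.68 ± 0.18 (SE) and the junction gene Esam at -0.64 ± 0.22, both with groups apart. Groups were apart, in either direction, for 27.5% of all named genes. Ushbp1 was at -0.58 ± 0.20 and Tspan18, a tetraspanin, at -0.81 ± 0.28, and 0 of the 27 passed. The means of 10 were higher and of 17 lower with DOX, and the junction gene Jam2, picked out after its values were seen, was at 0.66 ± 0.23 with groups apart. Among 18 endothelial transcription factors, with a median of -0.13, Foxc1 was at -0.57 ± 0.19 (with groups apart), Hhex at -0.54 ± 0.20, Tal1 at -0.37 ± 0.19 and Ets1 at -0.50 ± 0.26, none of which passed.

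VEGF ligands and co-receptors had a median of -0.25 over 8 genes. The ligand gene Vegfc was at -0.43 ± 0.30, Vegfd at -0.36 ± 0.17 (with groups apart), and Pgf, a ligand of Flt1, at 0.34 ± 0.11 (with groups apart), and none of the 8 passed. Flt4, the lymphatic VEGF receptor, lay below the background limit on all 3 DOX arrays and was at least 1.33-fold lower with DOX, without passing (limma adjusted p = 0.113). Of 4 tested genes around the angiopoietin receptors, the ligand Angpt1 was at -0.92 ± 0.21 (limma adjusted p = 0.111), with groups apart, and its antagonist Angpt2 at 0.11 ± 0.18. Svep1 was at 0.033 ± 0.14 and the phosphatase gene Ptprb at -0.0027 ± 0.24.

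Subtypes of vessel cells gave medians near 0. Arterial and tip cell genes had a median of -0.028 over 17 genes, with Apln, a tip cell peptide, at -1.01 ± 0.20 (limma adjusted p = 0.0885), the Notch ligand Jag1 at -0.47 ± 0.15 and Dkk2 at -0.47 ± 0.22, each with groups apart. Venous genes had a median of -0.14 over 8 genes, with the apelin receptor gene Aplnr at -0.80 ± 0.33, Selp at -0.25 ± 0.20, Ackr1 at 0.20 ± 0.20 and Vcam1 at -0.23 ± 0.25. Lymphatic genes had a median of -0.031 over 6 genes, with Pdpn at -0.35 ± 0.15 (with groups apart), Lyve1 at 0.30 ± 0.25 and Foxc2 at 0.21 ± 0.36. Capillary genes had a median of 0.027 over 13 genes, with Rgcc at -0.48 ± 0.25, Timp4 at 0.36 ± 0.21, Car4 at 0.11 ± 0.10 and Tcf15 at -0.33 ± 0.34. Genes of BMP signalling in vessels had a median of -0.014 over 10 genes, with Tmem100 at 1.06 ± 0.27 (with groups apart), the receptor gene Bmpr2 at -0.34 ± 0.10 (with groups apart), Id1 at 0.48 ± 0.25 and Bmp4 at -0.29 ± 0.16. None of the genes in these lists passed.

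**Figure D4:**
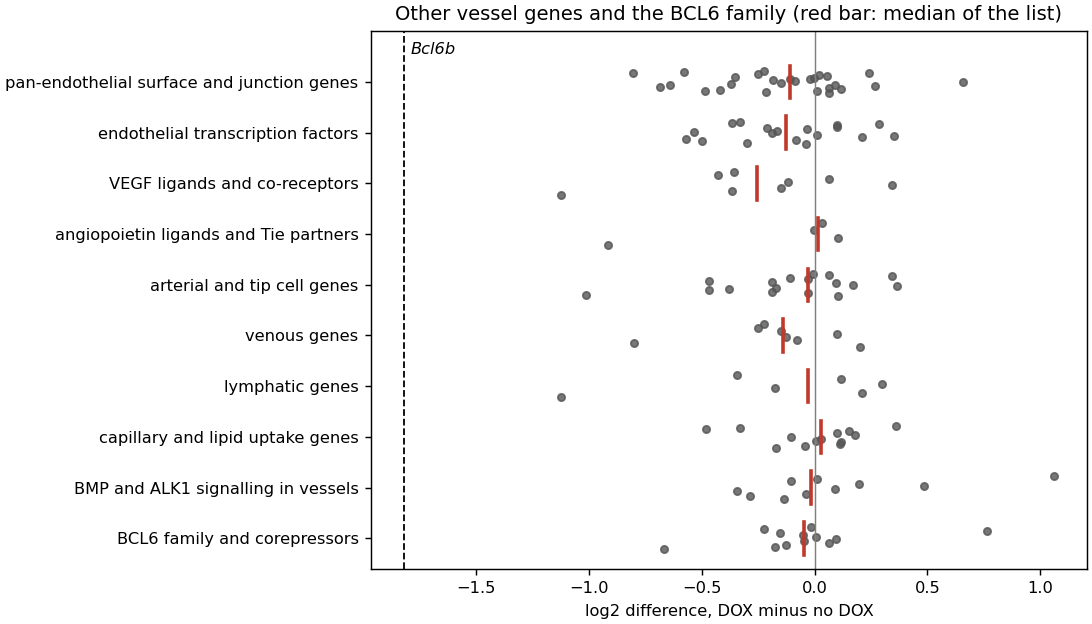
Log2 difference, DOX minus no DOX, of each tested gene in 9 vessel lists and the BCL6 family list; each point is a gene, red bars are medians and the dashed line is Bcl6b at -1.82. Among vessel genes well above background on all 6 arrays the lowest point is Apln at -1.01; Flt4, below the background limit with DOX, is drawn at its measured difference.

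The relatives and partners of Bcl6b were read by 12 tested genes, with a median of -0.048, and none passed. Bcl6, its closest relative and a repressor of inflammatory genes, was at -0.67 ± 0.13 (SE), with groups apart (limma adjusted p = 0.0889). Zbtb16, another BTB zinc finger gene, was at 0.77 ± 0.24 (limma adjusted p = 0.172), with groups apart in the other direction. Of all named genes, 13.0% had groups apart with DOX lower and 14.5% with DOX higher. Zbtb7a was at -0.23 ± 0.15, and Rbpj, the DNA-binding partner of Notch, at -0.15 ± 0.12.

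Markers of other blood and immune cells were read on the same arrays. The mean level of 17 tested T cell markers was -1.75, -2.07 and -2.11 with DOX, against -1.44, -1.59 and -1.50 without DOX, with a median log2 difference of -0.41. Their summed signal, relative to the array's 75th percentile, ranged from 12.3 to 14.0 with DOX and from 13.1 to 13.9 without DOX. Of the 17 genes, 2 passed the limma test with a lower mean, Cd8a (adjusted p = 0.0234, at least 1.73-fold lower) and the receptor chain gene Cd247 (adjusted p = 0.0166, at least 1.25-fold lower). Over all named genes 0.158% passed with a lower mean in DOX. Both genes lay below the background limit on all 3 DOX arrays and entered the test through the no DOX arrays alone, so nothing is read from this count. They are also part of the mean level and the median of the 17 markers. Nothing is therefore read from the gap between the groups in that mean, or from that median. Vwf is also made by megakaryocytes, and platelet and megakaryocyte markers had a mean level of -1.34, -1.52 and -1.85 with DOX, against -1.27, -0.90 and -1.03 without DOX. Their summed signal ranged from 5.89 to 8.33 with DOX and from 7.04 to 9.21 without DOX, 7 of 7 were lower in mean, and 0 passed, with Ppbp at -1.62 ± 0.28 and Itga2b at -0.35 ± 0.16. Pericyte and smooth muscle markers, from the cells that wrap vessels, overlapped between groups (1.62 to 2.02 with DOX, 1.41 to 1.98 without DOX). The part of T cells, platelets and pericytes in the Bcl6b difference was not tested.

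The genes with array profiles most like that of Bcl6b were not among the vessel genes. Likeness was the root mean square difference between profiles over the 6 arrays, each centred on its own mean. The 5 nearest were sought among 14437 tested genes with a full symbol, leaving out Rik, Gm, LOC and accession-like names. The nearest was Cd8a, the CD8 T cell co-receptor chain, at 0.183 log2 units, though its DOX signals were below the background limit. Next came Nmrk2, a muscle nicotinamide riboside kinase gene, at 0.219, Cecr2, a chromatin remodelling gene, at 0.245, Ndufa4l2, a mitochondrial gene induced in hypoxia, at 0.247, and the transcription factor gene Klf11 at 0.260. Cecr2 and Klf11 cleared the background limit on 2 DOX arrays each. The log2 differences were -1.75 ± 0.33 for Nmrk2, -1.46 ± 0.18 for Cecr2, -1.84 ± 0.13 for Ndufa4l2 and -1.33 ± 0.20 for Klf11 (SE). These 5 genes were found by searching for such profiles, so their differences carry no test. Of the 9 other endothelial genes Cdh5 came nearest, at 0.724 and place 780 among the 15207 named genes tested, and Sox18 was farthest, at place 12777. The 9 stood in the order of their log2 differences, which weigh on this measure. As Bcl6b was chosen for its difference, these places, and the lack of vessel genes among the 5 nearest, carry no test.

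**Figure D5:**
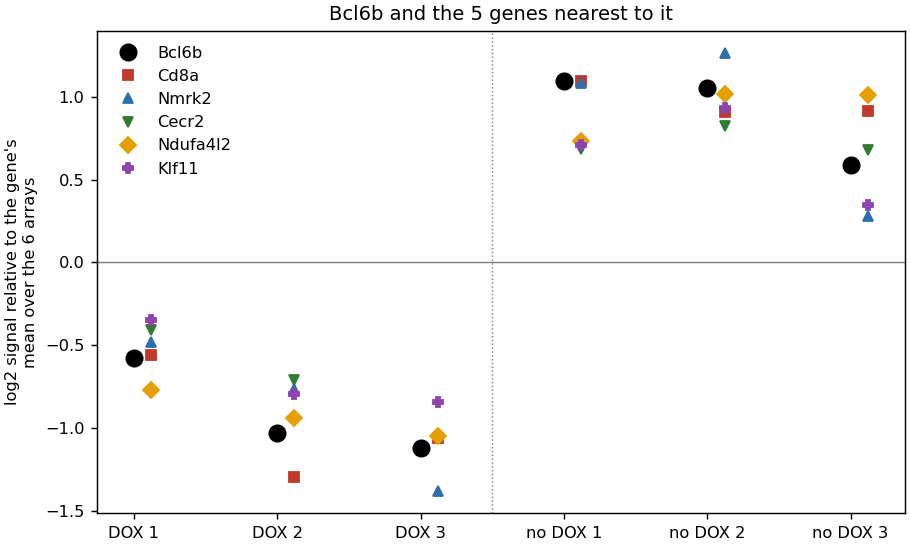
Log2 signal on each array, centred on each gene's own mean over the 6 arrays, for Bcl6b (black circles) and the 5 named genes with the smallest root mean square difference from it (0.183 to 0.260). All 6 genes are below 0 on the DOX arrays and above 0 on the no DOX arrays, Cd8a with DOX signals below the background limit.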

How the data were processed

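Tongue RNA was labelled with Cy3 and read on 1-colour Agilent SurePrint G3 arrays, per the labels. Signal intensity per spot is linear in the deposited scanner files; Feature Extraction, version 11.5.1.1 per the file headers, had already subtracted background. The deposited value table equals that intensity times 1 factor per array (3.70 to 3.99), so it is linear; no source used here states how the factors were set, and its column medians lay between 90.01 and 102.5. Control spots and 146 to 195 outlier spots per array were left out. Spots of 1 probe were averaged as log2 intensity, and the log2 of the array's 75th percentile over non-control spots was subtracted. Genes were assigned by accession from RefSeq (GRCm38.p6): 28331 probes matched 1 gene and 27350 none. The 30921 probes tested cleared the background limit throughout 1 or both groups and had a value on all 6 arrays. No probe coordinates are given because the array annotation uses another build. Normexp, an alternative, used the median spot signal, since the mean was not among the columns used.

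DOX and no DOX were compared by limma (version 3.58.1, R 4.3.3; moderated two-sided test, Benjamini-Hochberg over all tested probes, threshold 0.05); the procedure was tested on simulated data with known changes. The brightest tested probe stood for a gene. The 10 genes and all lists were chosen with earlier results of these data known. From each vessel list and the BCL6 family list up to 4 genes with the smallest p were named, from each list of other cells up to 2, and the 5 genes nearest to Bcl6b in array profile. A gene not well above background on a whole group is given as at least N-fold, the dim side being, per array, its own signal or the dimmest probe that cleared the background limit, whichever is higher. Replicate numbers were not used to pair the mice in the main fit. Deviations of same-numbered arrays from their group means correlated at -0.11, -0.0092 and 0.010 over probes. Such values cannot show whether the mice were paired in some other way.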

Additional observations from a re-analysis of the deposited data

How the results depend on the processing

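Under 10 other settings (background correction, scaling, value table, filters, variance model, array weights, replicate block, probe rule) and without each array in turn, Bcl6b was lower with DOX. Normexp gave -1.01 for Bcl6b and -0.99 for Bcl6b minus the mean of the 9 genes; its added offset of 50 exceeds the mean signal of Bcl6b with DOX (40.4). Bcl6b no longer passed, leaving 0 of the 10 genes past the threshold, with no filter on dim probes or with the replicate block (0 genes, and 0 of all probes, against 121); as it was chosen by these values, passing or missing the threshold is no test of it. All probes called numbered 285 with normexp, 208 with trend and robust, 599 with array weights and 15 without the filter. Leaving out 1 array gave 0 of the 10 genes past the threshold in all 6 cases and 3 to 69 calls over all probes. Over those 6 fits the log2 difference lay between -1.99 and -1.72 for Bcl6b, between -1.97 and -1.62 relative to the 9 genes, and between -0.037 and 0.18 for the median of the 9. The 98 vessel genes gave 0 calls in all 16 settings, and the smallest adjusted p of the 9 genes in any was 0.129 (Cdh5, array weights). Calls were few over all probes too, at 0.391% in the main fit, so nothing is read from the 0 calls of the vessel genes. Of 144 values of the 9 genes, 137 kept their sign and 7 did not: Kdr at 0.0024 with each array's median, Tek at -0.097 with array weights, and, leaving out arrays, Kdr between -0.037 and 0.045 and Tek between -0.23 and 0.18. Averaging its probes put Kdr at -0.20. The dimmer Sox17 probe, not counted by itself in the 144 values, was below 0 with normexp (-0.018) and with array weights (-0.013).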

Other observations

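The marker lists of the other tongue cells were read on the same arrays. Skeletal muscle markers had a median log2 difference, DOX minus no DOX, of 0.051 over 10 genes, with Myh1 at 0.32 ± 0.21 (SE) and Mylpf at 0.32 ± 0.22 (its probes differ in direction), and squamous epithelium markers 0.010 over 10 genes, with Dsg3 at -0.88 ± 0.32 and Krt16 at 0.81 ± 0.48. Red cell markers had a median of -0.076 over 5 genes, with Hbb-bt at -0.19 ± 0.16 and Alas2 at -0.17 ± 0.18. Fibroblast markers had a median of -0.15 over 10 genes, with Thy1 at -0.75 ± 0.18 and Col3a1 at -1.21 ± 0.29. Macrophage markers had a median of 0.25 over 11 genes, with Lyz2 at 1.02 ± 0.17 and Fcgr1 at 1.04 ± 0.30 (below the background limit on 1 array without DOX). Schwann cell markers had a median of 0.072 over 7 genes, with Mbp at -0.48 ± 0.15 (its probes differ in direction) and Sox10 at 0.78 ± 0.34. None of the genes in these lists passed the limma test. Among 7 fat cell markers, with a median of 0.030, the adrenergic receptor gene Adrb3 was at -1.49 ± 0.19 (limma adjusted p = 0.0407) and Retn at 0.85 ± 0.21. Over all named genes 0.158% passed with a lower mean in DOX. The lists were chosen with earlier results of these data known, so nothing is read from the pass of Adrb3.

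Salivary gland markers had a mean level of 3.43, 4.03 and 3.47 in DOX replicates 1 to 3, against 3.12, 0.52 and 2.81 in no DOX replicates 1 to 3. The DOX arrays lay above the no DOX arrays, and no DOX replicate 2 was far below the others. The median difference over 8 genes was 2.18, with Bhlha15 at 1.81 ± 0.28 and Lpo at 2.54 ± 0.46, and 0 passed the limma test. The list split into 5 higher and 3 lower genes: Klk1 was at -4.23 ± 1.92, Aqp5 at -0.99 ± 0.43 and Dcpp1 at -0.77 ± 0.29, named after their values were seen. An unadjusted p under 0.05 was found for 6 of the 8, Dcpp1 among them, where 20.1% of all named genes had one. The part of gland RNA in the Bcl6b difference was not tested.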
